A study of Mus musculus with 6 samples.

Results

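The 10 genes Mfn1, Mfn2, Opa1, Dnm1l, Fis1, Mff, Mief1, Mief2, Oma1 and Yme1l1, which shape the mitochondrial network by fusion and division, were followed in articular cartilage of young and aged mice. They were chosen by gene symbol and are 10 of the 33971 genes in the deposited table. The study sequenced polyadenylated RNA of articular cartilage, asking how gene expression in this tissue changes during aging, from 3 libraries of 2-month-old and 3 libraries of 18-month-old mice. All 6 libraries carry the genotype label WT, no treatment is given for either age, and the study's methods describe male mice. The methods state that samples were independent, but neither they nor the labels say which animals, or how many, went into a library, so p-values measure the spread between these libraries.

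Mitochondria join and divide continuously. Fusion of the outer membrane is carried out by the mitofusins MFN1 and MFN2, and fusion of the inner membrane by OPA1, which the proteases OMA1 and YME1L1 cut into shorter forms. Division is carried out by DRP1, the product of Dnm1l, a cytosolic dynamin that is recruited to the mitochondrial surface by the adaptors MFF, MIEF1 and MIEF2, with FIS1 as a further outer membrane protein, and these steps depend heavily on protein cleavage, phosphorylation and ubiquitination, which transcript levels do not measure.

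Of the 10 genes, 2 were higher and 2 were lower in 18-month than in 2-month cartilage. Fis1 and Mief1 rose 1.64-fold and 1.27-fold, and Mfn1 and Yme1l1 fell 1.74-fold and 1.5-fold (edgeR quasi-likelihood test, Benjamini-Hochberg adjusted p below 0.05 over the 20397 genes tested). The background was large, since 23.4% of all genes tested were higher at 18 months at that limit and 27.9% were lower, and the share of the 10 genes in each direction was near it. With the further limit of a log2 fold change above 1 or below −1, which 14.9% of all genes passed upward and 21.3% downward, 0 of the 10 genes were left, while 4 had an unadjusted p below 0.05 in edgeR. DESeq2 placed 5 of the 10 past the adjusted limit alone. The split of 2 higher and 2 lower was 1 and 2 in limma on the deposited FPKM, and 1 and 3 in limma with TPM or quantile normalization. It was 0 and 3 in edgeR with scaling by 12 genes of mitochondrial content. The median log2 fold change of the 10 genes was 0.13, beside −0.02 over all genes tested. All 10 passed the filter on low counts.

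Libraries held between 48171507 and 59085179 counts, and each entered as its own sample. The spread between same-age libraries exceeded counting noise, with a median squared deviation 6.32 to 48.7 times that of counting alone. It was smallest between 18-month replicates 2 and 3 (6.32), followed by 2-month replicates 1 and 3 (13.1). Such spread does not show that libraries came from separate animals. The tissue label was compared with marker genes, whose summed shares of counts have Wilson 95% intervals of at most 8.3% of the share to either side, covering counting error alone. A list of 16 chondrocyte markers took 8.22% to 9.43% of counts at 2 months and 0.201% to 0.892% at 18 months, with 16 of 16 lower by the edgeR test and Epyc at 0 in the aged libraries. For 14 neutrophil markers the shares were 0.00128% to 0.376% and 4.22% to 4.53%, with the libraries of the 2 ages apart for 14 of 14 and 0 of 14 past the adjusted limit (3 at an unadjusted p below 0.05). For 9 erythroid markers they were 0.0247% to 0.658% and 2.69% to 3.56%, with 3 of 9 higher by the test. The highest neutrophil and erythroid shares among the young libraries were in 2-month replicate 2, and the highest chondrocyte share among the aged was in 18-month replicate 1. The same young library also had the highest young shares of B lymphocyte, macrophage, endothelial, adipocyte, osteoblast and osteoclast markers. Its osteoclast share was 0.596%, against 0.00698% and 0.101% in 2-month replicates 1 and 3 and 0.245% to 0.278% at 18 months. Shares of 8 osteoblast markers were 0.479% to 0.658% at 2 months and 0.112% to 0.13% at 18 months. Xist held 88239 to 102417 counts at 2 months and 11 to 30 at 18 months, while Ddx3y, Uty, Kdm5d and Eif2s3y held 0 to 39 counts at 2 months and 1189 to 5616 at 18 months, so the 2-month libraries go against the description as male. Age, sex pattern and cell makeup divide the libraries in the same way and cannot be told apart, and in bulk tissue fewer cells of a type and less RNA per cell cannot be told apart either.

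The short promoter stretches below hold every match to a motif, chosen with the results known, in the promoters listed for the genes followed here. They belong to the 4 genes that passed the test. Each stretch is 30 bases around a match to the letters CCGGAAG, the core that ETS-family transcription factors bind. The match is given in capitals on the coding strand of RefSeq promoters (build GRCm38.p6).
Fis1, chr5:136953246-136953275: ggaggcaccacCCGGAAGttcaggcttccc
Mief1, chr15:80234004-80234033: ggaggggccgaCCGGAAGtgcttccgcctc
Mfn1, chr3:32529427-32529456: gatccgaagcgCCGGAAGtagccgccccta
Yme1l1, first match, chr2:23156421-23156450: tgacagagtccCCGGAAGaggcggagcgct
Yme1l1, second match, chr2:23156475-23156504: ggaggcttgctCCGGAAGcactgtacctat

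The match began 18 bases upstream of the RefSeq start of Fis1, 44 bases upstream of that of Mfn1, 65 of that of Mief1, and 73 and 19 of that of Yme1l1. Searched on both strands in the 250 bases upstream of each start, these letters were in 4 of the 15 promoters listed for the 10 genes and in 6.91% of all 32851 promoters. No promoter listed for the other 6 genes held them. G and C made up 66.8% (Fis1), 69.6% (Mief1), 53.6% (Mfn1) and 55.2% (Yme1l1) of the 250 bases in the promoters with a match. The median over all promoters was 52.4%, and the shares were not adjusted for it. The table's gene models of Mief1 and Yme1l1 start upstream of the RefSeq starts, so the Mief1 match spans the start of its gene model and both Yme1l1 matches lie inside theirs. The shorter letters CGGAA, which overlap the first motif, were in 7 of the 15 promoters, adding Mff and Mief2, and in 25.2% of all promoters. The NRF1 core GCATGCGC was in 1 promoter, that of Opa1, and in 2.26% of all. The E-box CACGTG was in 1, that of Mief2, and in 6.02% of all, while the cAMP response element TGACGTCA (1.55% of all) and the YY1 core AAGATGGC (1.56% of all) were in 0 of 15. The motifs were chosen with the results known, so the split by CCGGAAG cannot test a link between these letters and the calls. The matches are descriptions of letters that hold genes of both directions.

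Mfn1, one of the mitofusins that tether and fuse outer membranes, lies on chromosome 3 (ENSMUSG00000027668, 32529465 to 32579239, plus strand, GRCm38). Its levels in CPM, counts scaled to library size and corrected for library makeup by TMM (a trimmed mean of log ratios), were 60.8, 43.4 and 59.9 in 2-month replicates 1, 2 and 3, and 30.3, 31.6 and 32.5 in 18-month replicates 1, 2 and 3. Every aged library was below every young one, the aged libraries lay close together, and 2-month replicate 2 lay nearest to them. The mean fell from 54.7 ± 9.77 to 31.5 ± 1.12 CPM (SD, n = 3 each), a log2 fold change of −0.80 (SE 0.15, edgeR adjusted p = 0.00849). That library also had the largest neutrophil and erythroid shares among the young, whose part in the result was not tested. Without it, the log2 fold change was −0.91.

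Mfn2, the other mitofusin, which also lies at contacts between mitochondria and the endoplasmic reticulum, is on chromosome 4 (ENSMUSG00000029020, 147873599 to 147904704, minus strand). It had 63.6, 66.1 and 73.0 CPM in the young libraries and 67.5, 69.5 and 72.7 CPM in the aged ones. The ages overlapped, with the highest and the lowest value both in young libraries. The log2 fold change was 0.05 (95% interval −0.19 to 0.29, edgeR adjusted p = 0.697), with means of 67.6 ± 4.87 and 69.9 ± 2.65 CPM (SD, n = 3 each).

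The mitofusins were also compared within libraries. The ratio of Mfn2 to Mfn1 in FPKM, fragments scaled by transcript length and by library depth, was 1.23, 1.79 and 1.44 in the young libraries and 2.63, 2.59 and 2.64 in the aged ones. The ratio was higher in each aged library than in any young one, by 0.83 on the log2 scale (two-sided exact permutation p = 0.1, the smallest that 3 libraries against 3 allow, and 0.15 after Benjamini-Hochberg adjustment over the 6 pairs compared). Mfn1 made up 44.8%, 35.8% and 41.0% of the summed mitofusin FPKM at 2 months and 27.6%, 27.8% and 27.5% at 18 months.

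Opa1, the dynamin-family GTPase of inner membrane fusion and cristae shape, is on chromosome 16 (ENSMUSG00000038084, 29579334 to 29654884, plus strand). Its CPM were 60.6, 69.0 and 61.0 at 2 months and 66.5, 69.9 and 69.3 at 18 months. Young replicate 2 sat among the aged libraries, and the other two young libraries were below them. The log2 fold change was 0.11 (95% interval −0.13 to 0.35, edgeR adjusted p = 0.375).

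Dnm1l, which encodes the division GTPase DRP1, lies on the same chromosome on the minus strand (ENSMUSG00000022789, 16312230 to 16358959). The young libraries gave 89.5, 83.8 and 87.5 CPM and the aged ones 81.2, 86.1 and 79.4 CPM. The values overlapped and spanned 1.13-fold from lowest to highest, the narrowest span of the 10 genes. The log2 fold change was −0.08 (95% interval −0.30 to 0.14, edgeR adjusted p = 0.486), and its means were 86.9 ± 2.87 and 82.2 ± 3.47 CPM (SD, n = 3 each). Within libraries, the Dnm1l to Opa1 ratio on the FPKM scale was 2.23, 1.84 and 2.17 at 2 months and 1.85, 1.87 and 1.73 at 18 months, with overlap (two-sided exact permutation p = 0.3, adjusted 0.36).

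**Figure D1:**
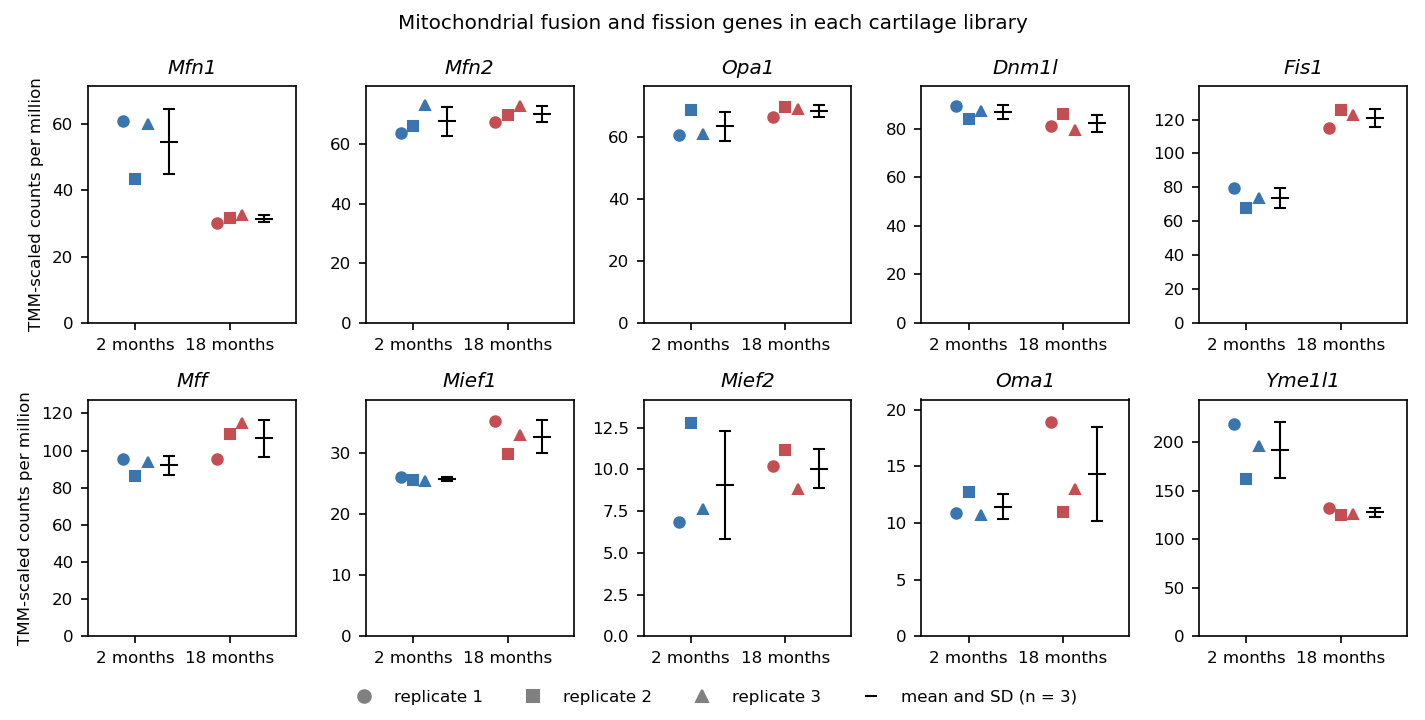
TMM-scaled CPM of the 10 fusion and fission genes in each library, 1 panel per gene, with 2-month and 18-month libraries as points and the mean and SD of each age beside them. The ages stand apart for Mfn1 and Yme1l1, which were lower at 18 months, and for Fis1 and Mief1, which were higher, while the points of the other 6 genes overlap.

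Fis1, a small tail-anchored protein of the outer membrane, is on chromosome 5 (ENSMUSG00000019054, 136953275 to 136966232, plus strand). It had 79.7, 67.9 and 73.9 CPM in the young libraries and 115.1, 125.5 and 122.8 CPM in the aged ones, and the lowest aged library was well above the highest young one. The mean rose from 73.8 ± 5.94 to 121 ± 5.41 CPM (SD, n = 3 each), a log2 fold change of 0.71 (SE 0.10, edgeR adjusted p = 0.00369). The young library farthest from the aged ones was 2-month replicate 2, which had the largest neutrophil and erythroid shares among the young. The part of cell makeup in the result was not tested.

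Mff, the tail-anchored receptor that recruits DRP1, is on chromosome 1 (ENSMUSG00000026150, 82724890 to 82752390, plus strand). It gave 95.7, 86.4 and 94.1 CPM at 2 months and 95.7, 109.1 and 115.1 CPM at 18 months. The lowest aged library, replicate 1, lay at the level of the highest young library, and the other two aged libraries lay above. The log2 fold change was 0.21 (95% interval −0.06 to 0.49, edgeR adjusted p = 0.159), and DESeq2 placed Mff past the limit (adjusted p = 0.0331). The opposite-strand gene C430014B12Rik, which overlaps Mff, had 5 to 41 counts per library against 4343 to 6498 for Mff. Relative to Fis1, Mff was lower in every aged library, with an FPKM ratio of 0.211, 0.223 and 0.224 at 2 months and 0.146, 0.153 and 0.165 at 18 months (log2 difference −0.51, two-sided exact permutation p = 0.1, adjusted 0.15). The ratio of Dnm1l to Mff was also lower in every aged library, at 1.75, 1.82 and 1.74 against 1.59, 1.48 and 1.29 (log2 difference −0.29, two-sided exact permutation p = 0.1, adjusted 0.15).

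Mief1 and Mief2 encode related outer membrane proteins that bind DRP1. Mief1 on chromosome 15 (ENSMUSG00000022412, 80234018 to 80253371, plus strand) had 26.1, 25.6 and 25.5 CPM at 2 months and 35.3, 29.9 and 32.9 CPM at 18 months. The young libraries were nearly equal and all below the aged ones, of which replicate 1 was the highest. The log2 fold change was 0.35 (SE 0.11, edgeR adjusted p = 0.0377). This call was the least stable of the 4, since Mief1 passed in 5 of 13 alternative fits to all libraries and in 1 of 6 fits with a library left out, where the adjusted p in edgeR ran from 0.0285 to 0.117. With a replicate block it was 0.0947.

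Mief2 on chromosome 11 (ENSMUSG00000018599, 60728398 to 60732951, plus strand) was the member with the fewest counts, 310 to 679 per library. It had 6.83, 12.8 and 7.60 CPM in the young libraries and 10.2, 11.1 and 8.82 CPM in the aged ones, so the aged values lay inside the young range. Its log2 fold change was 0.15 (95% interval −0.56 to 0.85, edgeR adjusted p = 0.690), and its highest value was in 2-month replicate 2. The ratio of Mief2 to Mief1 on the FPKM scale was 0.783, 1.49 and 0.885 at 2 months and 0.862, 1.11 and 0.798 at 18 months, with overlap (log2 difference −0.14, two-sided exact permutation p = 0.7), and without 2-month replicate 2 the difference was 0.14.

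Yme1l1, the ATP-dependent protease of the inner membrane that cuts OPA1 in the intermembrane space, is on chromosome 2 (ENSMUSG00000026775, 23156369 to 23199260, plus strand). Its CPM were 218.7, 161.5 and 195.7 in the young libraries and 132.5, 124.8 and 125.4 in the aged ones. Every aged library was lower, and 2-month replicate 2 was again the young library nearest to the aged. The mean fell from 192 ± 28.8 to 128 ± 4.31 CPM (SD, n = 3 each), a log2 fold change of −0.59 (SE 0.14, edgeR adjusted p = 0.0166). The call was lost in edgeR without 2-month replicate 3 (adjusted p = 0.0620), 18-month replicate 2 (0.0665) or 18-month replicate 3 (0.0663), with the direction kept.

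Oma1, the stress-activated metalloprotease that cuts OPA1 at another site, is on chromosome 4 (ENSMUSG00000035069, 103313812 to 103366443, plus strand). It had 10.9, 12.7 and 10.7 CPM at 2 months and 18.9, 10.99 and 13.1 CPM at 18 months. The aged libraries spread widely, with replicate 1 far above the others and replicate 2 inside the young range. Replicate 1 was the aged library richest in chondrocyte markers, at 0.892% of counts. The young libraries, at 8.22% to 9.43%, all had less Oma1 than it. The part of cell makeup in this value was not tested. The log2 fold change was 0.32 (95% interval −0.26 to 0.91, edgeR adjusted p = 0.294), and it was 0.08 without 18-month replicate 1 and 0.49 without 18-month replicate 2. The ratio of Oma1 to Yme1l1 on the FPKM scale was higher in each aged library than in any young one, at 0.533, 0.329 and 0.389 against 0.186, 0.294 and 0.205 (log2 difference 0.87, two-sided exact permutation p = 0.1, adjusted 0.15). Oma1 gave 15.7%, 22.7% and 17% of the summed FPKM of the 2 proteases at 2 months and 34.8%, 24.7% and 28.0% at 18 months.

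**Figure D2:**
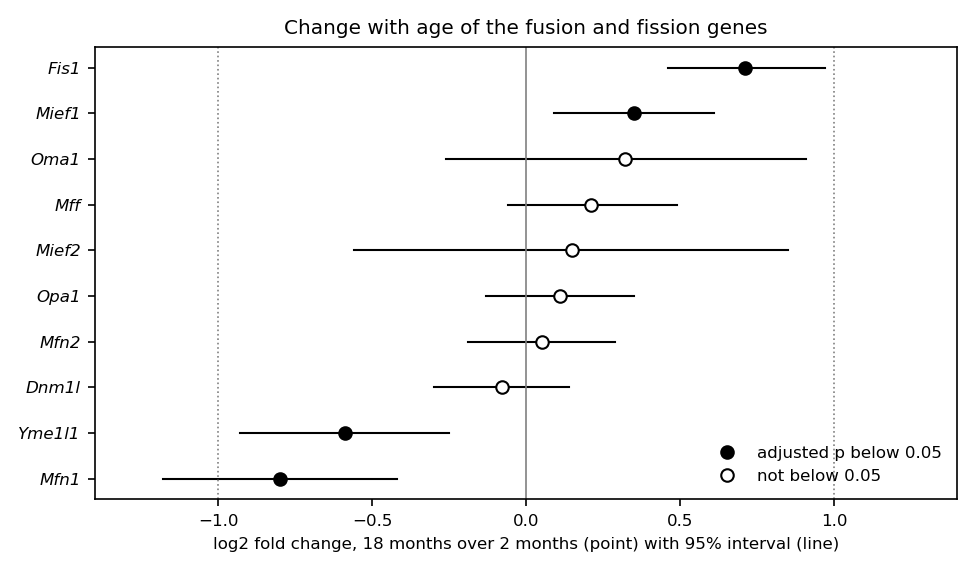
Log2 fold change of each of the 10 genes, 18-month over 2-month cartilage, with the 95% interval from edgeR's quasi-likelihood fit. The intervals of Mfn1 and Yme1l1 lie below 0, those of Fis1 and Mief1 above it, and those of the other 6 genes include 0.

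Counted by overlap, 2 of the 10 genes had every aged library above every young one and 2 had every aged library below, the same 4 genes that passed the test. Over all genes tested these shares were 33.9% and 34.6%, so separation of the ages was no more frequent among the 10 genes. By role, the 2 mitofusins held 1 fall, the 4 outer membrane division genes held 2 rises, the 2 proteases held 1 fall, and neither Opa1 nor Dnm1l passed.

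**Figure D3:**
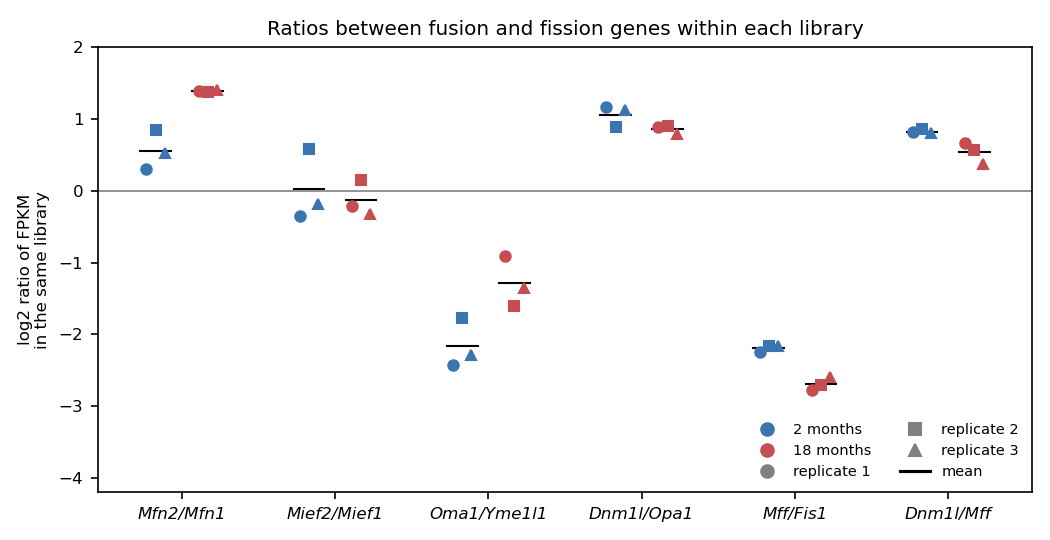
Within-library ratios of FPKM on a log scale for the 6 pairs of fusion and fission genes, with a point for each 2-month and 18-month library. The ratios of Mfn2 to Mfn1 and of Oma1 to Yme1l1 are higher in every aged library, those of Mff to Fis1 and of Dnm1l to Mff are lower, and the other 2 pairs overlap.

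On the FPKM scale, Fis1 had the highest level at both ages, 36.6 ± 1.57 at 2 months and 63.4 ± 1.59 at 18 months (SD, n = 3 each). Yme1l1 followed at 20.3 ± 2.13 and 14.3 ± 0.81, then Dnm1l at 14.2 ± 0.396 and 14.2 ± 0.614, and Mfn2 at 11.1 ± 0.837 and 12.1 ± 0.272. Yme1l1 was above Dnm1l in every young library, whereas the 2 genes overlapped at 18 months. Mff stood at 8.01 ± 0.079 and 9.80 ± 0.712 and Opa1 at 6.89 ± 0.914 and 7.81 ± 0.0543. Mfn1 moved from sixth to eighth place, from 7.56 ± 0.976, where it overlapped Mff and Opa1, to 4.61 ± 0.0737, where it overlapped Oma1. The remaining levels were those of Oma1 (4.56 ± 0.71 and 6.02 ± 1.87), Mief2 (2.88 ± 1.21 and 3.32 ± 0.402) and Mief1 (2.70 ± 0.144 and 3.62 ± 0.368). Mief1 and Mief2 overlapped at both ages and exchanged their order. From highest to lowest the 10 levels spanned 13.6-fold at 2 months and 19.1-fold at 18 months.

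The summed level of the 3 fusion genes stayed within a narrow range, at 24.7, 25.9 and 26.0 FPKM in the young libraries and 24.3, 24.3 and 24.9 FPKM in the aged ones. The summed level of the 5 division genes was 65.4, 65.7 and 62.1 FPKM at 2 months and 92.7, 96.6 and 93.8 FPKM at 18 months. Their ratio, fusion over division, was 0.377, 0.395 and 0.418 in the young and 0.262, 0.252 and 0.265 in the aged libraries, without overlap. Fis1 alone held 54.7% to 58.7% of the division sum at 2 months and 66.7% to 67.6% at 18 months. With Fis1 left out the ratio was 0.913, 0.871 and 0.976 against 0.788, 0.772 and 0.818, still without overlap but closer. The sums depend on how libraries are scaled, whereas such scaling cancels in their ratio. With TPM the log2 fold changes were −1.13 for Mfn1, −0.31 for Mfn2 and −0.25 for Opa1. For the division genes they were 0.36 for Fis1, −0.44 for Dnm1l, −0.15 for Mff, −0.01 for Mief1 and −0.16 for Mief2. The level fusion sum was found in the deposited FPKM and cannot be carried over to other scalings, for which no sum is given. These sums are a description of transcript levels, with no test.

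Genes with a profile most like that of a member were found by the root mean square difference of centred log2 CPM over the 6 libraries, among 13899 genes whose mean FPKM reached 1. For Mfn1 these were 2610301B20Rik (0.022), Ldhb (0.034), which encodes a lactate dehydrogenase subunit, and Snhg17 (0.044). For Mfn2 they were Idi1 (0.035), Mrgbp (0.035) and Tnpo1 (0.038). Opa1 was nearest to 6030458C11Rik (0.026), Dctn4 (0.036) and Tmem68 (0.040), and Dnm1l to Cnih1 (0.028), Cdk8 (0.035) and Zfp617 (0.037). These are descriptions over 6 libraries of 2 ages, with no test.

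Around the 10 genes, 48 further genes of mitochondrial dynamics were examined as a list, of which 20 were higher at 18 months, 10 were lower and 18 did not pass (edgeR adjusted p below 0.05), with a median log2 fold change of 0.32. Over all genes tested, 23.4% were higher and 27.9% lower at that limit, with a median of −0.02, and the counts of the shorter lists that follow stand against the same shares. With TPM, and likewise with scaling by the content list of 12 genes, the split was 9 higher and 15 lower. With the further limit on fold change 8 were higher and 7 lower, where 14.9% and 21.3% of all genes were.

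Among 10 accessory division genes, 4 rose and 3 fell, beside 23.4% and 27.9% of all genes. The dynamins moved apart, as Dnm1, the neuronal dynamin of endocytosis, had 6201, 5613 and 6246 counts in the young libraries and 1185, 461 and 556 in the aged ones (log2 fold change −3.34, SE 0.37, edgeR adjusted p = 0.00184). Dnm3 fell as well, by 1.51 on the log2 scale (edgeR adjusted p = 0.0159), whereas Dnm2, the ubiquitous dynamin, rose by 1.47 (edgeR adjusted p = 0.00269). The level of Dnm3 was very low, with mean FPKM of 0.162 at 2 months and 0.0586 at 18 months, beside 9.77 and 28.3 for Dnm2. Mtfr2, which promotes mitochondrial division, had 38, 323 and 56 counts in the young libraries and 1672, 1927 and 1729 in the aged ones (log2 fold change 3.50, SE 0.82, edgeR adjusted p = 0.0161). Cdk1, the mitotic kinase that phosphorylates DRP1, had a like pattern with 164, 1784 and 254 against 8092, 8992 and 9004 counts (log2 fold change 3.40, edgeR adjusted p = 0.0257). For both, the highest young value was in replicate 2, the young library with the largest neutrophil and erythroid shares, whose part in these results was not tested.

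Among 5 accessory fusion genes, 2 rose and 2 fell. Miga1 and Miga2, whose products promote outer membrane fusion, fell by 1.37 and 1.10 on the log2 scale (edgeR adjusted p = 0.00430 and 0.00693). Pld6, a mitochondrial phospholipase, had 0 counts in each young library and 12, 18 and 51 in the aged ones, at least 7.57-fold higher in CPM when the young libraries are set to a floor of 3 counts each. Of 8 genes of OPA1 processing and prohibitin function, 5 rose and 1 fell, with a median of 0.56. The risers included Phb2 (log2 fold change 0.97) and the intermembrane space protease Htra2 (1.10), and Dele1, a substrate of OMA1 in stress signalling, fell by 0.54 (edgeR adjusted p = 0.00961).

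Enzymes that modify the fusion and division proteins numbered 11, with 3 higher and 3 lower. Pink1, the kinase that marks damaged mitochondria, had 15431, 10390 and 12579 counts at 2 months and 7567, 6595 and 6197 at 18 months (log2 fold change −1.21, SE 0.22, edgeR adjusted p = 0.00669). It was lower in every aged library than in any young one. Usp30, a deubiquitinase of the outer membrane, fell by 1.13 on the log2 scale, and Marchf5, a ligase of the same membrane, rose by 1.23 (edgeR adjusted p = 0.00711 and 0.00308). Of 10 genes of the cristae and outer membrane assembly complexes, 5 rose and 0 fell (23.4% and 27.9% of all genes), with Immt at 0.50 and Mtx2 at 0.75 on the log2 scale. Of 4 transport genes, Trak2 rose by 2.02 and Rhot1 fell by 0.55. Dnm2, Miga1, Miga2, Phb2, Htra2, Dele1, Usp30, Marchf5, Immt, Mtx2, Trak2 and Rhot1 were named after their values had been seen. Of the genes named from these lists, 0 changed sign under any alternative. Leaving out 1 library ended the edgeR call of Immt without 2-month replicate 1 or 3 or 18-month replicate 1 or 2, that of Cdk1 without 2-month replicate 3 or any aged library, and that of Mtx2 without 2-month replicate 3 or 18-month replicate 2 or 3. It also ended that of Dnm3 and Rhot1 without 18-month replicate 2 or 3, of Mtfr2 without 2-month replicate 3 and of Pld6 without 18-month replicate 2. In fits to all libraries, Dnm3 passed in 8 of 12 alternatives (−1.91 to −0.14 over all alternatives run), Pld6 in 10 of 12, and Immt and Mtx2 in 11 of 13 each, both being lost with TPM and with content scaling.

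A list of 12 nuclear genes of general mitochondrial content was set beside the 10 genes, with no transcript of the mitochondrial genome among them. Of these, 6 rose and 0 fell, where 23.4% and 27.9% of all genes did, and with TPM 3 were higher and 4 lower. Hspa9, Lonp1, Tomm20 and Vdac1, named after their values had been seen, were below 0 without passing, at −0.35, −0.31, −0.10 and −0.02 on the log2 scale. The median of the 12 was 0.48, led by Cs, the citrate synthase (1.45), the outer membrane channel Vdac2 (1.09) and the import receptor Tomm22 (0.97). Relative to these 12 genes, Mfn1 and Yme1l1 fell further, by 1.15 and 0.95 on the log2 scale. Fis1 was then at 0.35 (edgeR adjusted p = 0.0545), Mief1 at −0.03, and Dnm1l at −0.45 (edgeR adjusted p = 0.0287), where the median of all genes was −0.39 and Dnm1l stood at −0.05 relative to it.

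**Figure D4:**
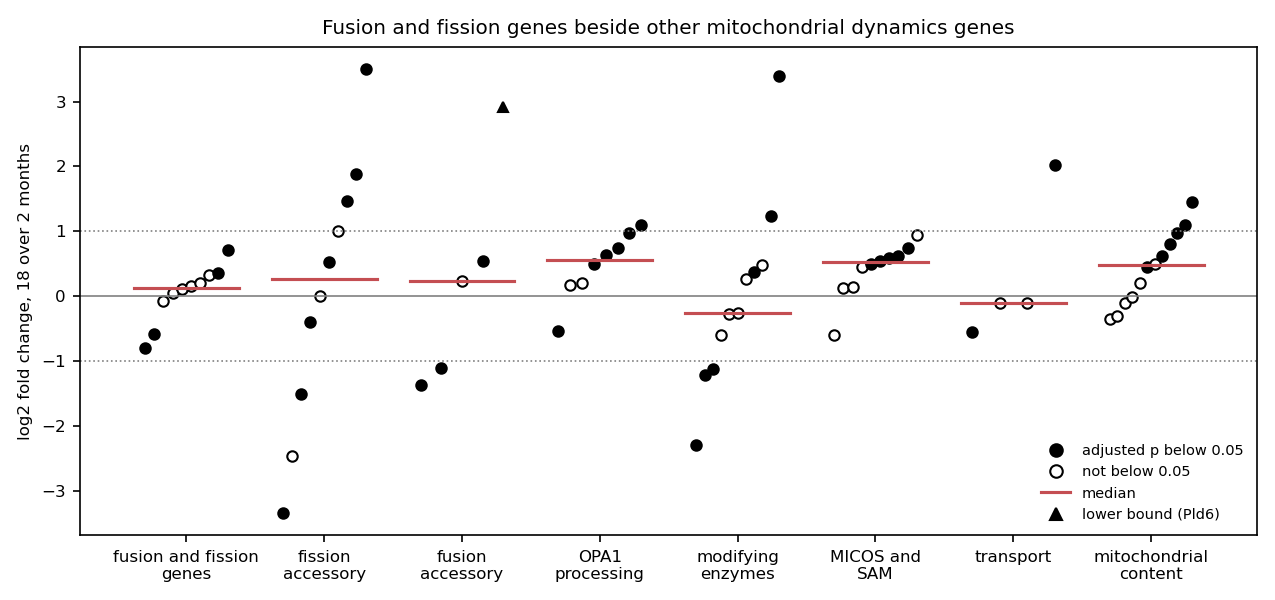
Log2 fold changes, 18-month over 2-month, of the 10 fusion and fission genes beside 6 lists of related genes and the mitochondrial content list, with filled points for an adjusted p below 0.05 in edgeR, red lines for medians and dotted lines at 1 and −1. The 10 genes lie between −0.80 and 0.71, inside the dotted lines, while 5 of the 6 lists of related genes, and the content list, have members past them; Pld6 is drawn at its lower bound.

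The fold changes were also set against the median of all genes under each scaling. The typical gene (median over all tested) stood at a log2 fold change of −0.33 with TPM, −0.10 with quantile normalization and −0.39 with scaling by the content list. Relative to that median, Dnm1l was at −0.06 in TMM-scaled counts, −0.11 with TPM, −0.21 with quantiles and −0.05 with content scaling. Fis1 was at 0.74, 0.69, 0.54 and 0.75 in the same order, Mfn1 at −0.78, −0.80, −0.80 and −0.76, and Yme1l1 at −0.57, −0.60, −0.72 and −0.55. Mief1, which stood at −0.01 with TPM and −0.03 with content scaling before this step, was at 0.37, 0.32, 0.36 and 0.37 relative to the median. TPM and content scaling multiply all genes of a library by the same factor, so subtracting the median takes most of their effect out again. The likeness of these values is therefore no test of the calls, and Mief1 did not pass with TPM, quantiles or content scaling.

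**Figure D5:**
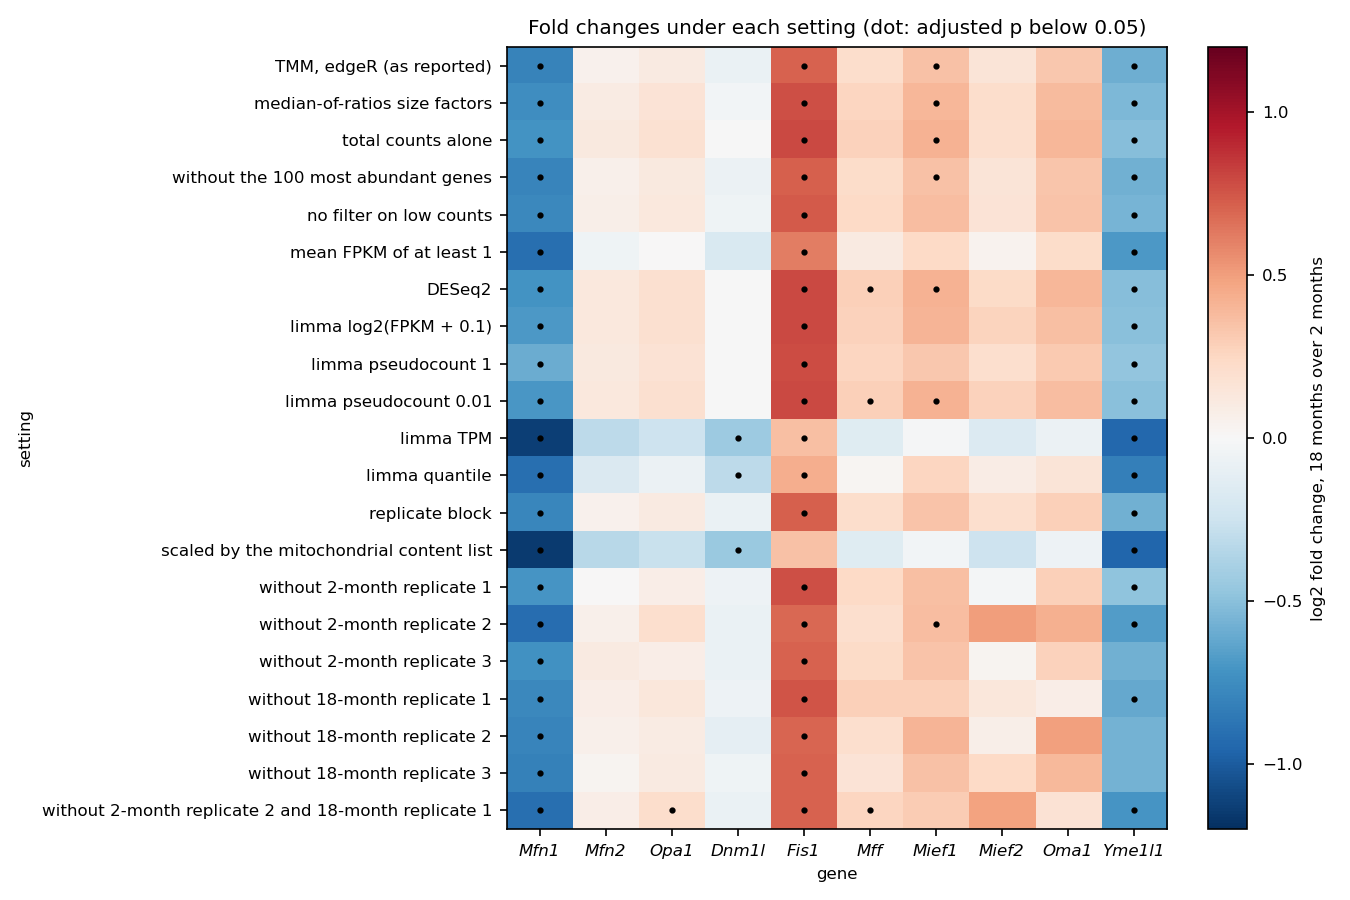
Log2 fold changes of the 10 genes, 18-month over 2-month, as colours, with a row for each way of fitting or each library left out and a dot where the adjusted p was below 0.05. Mfn1 and Yme1l1 are below 0 and Fis1 above 0 in every row, Mfn1 ranging from −1.15 to −0.60 over the fits to all libraries, while Mief1 has few dots.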

How the data were processed

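Raw read counts, as whole numbers, were deposited by the authors for each gene, together with FPKM values scaled by transcript length and library total. The submitters' processing notes name cutadapt 1.9, HISAT2 2.0.4, UMI-tools and StringTie 1.3.4d, with no roles. The labels describe adapters with molecular identifiers and a strand-marking kit. Whether counting used strand, the build and the annotation are not given in the sources used here. Coordinates were identical to GENCODE M21 (GRCm38) for 29627 of the 33865 genes found there (87.5%) and for 7 of the 10 genes, with Fis1, Mff and Oma1 differing in their end position, and were taken as GRCm38. Columns headed young and aged were matched to the titles by age and number, and 0 columns were left out. The 2-month libraries held 48339782, 51683577 and 48171507 counts and the 18-month libraries 59085179, 55201357 and 55702981.

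The counts went into edgeR 4.0.16 under R 4.3.3 (filterByExpr, TMM, glmQLFit and glmQLFTest, 2 groups, no block) and adjusted by Benjamini-Hochberg over 20397 genes. The threshold was 0.05, with log2 fold changes past 1 as a further limit. The standard error is the log2 fold change over the square root of F. The scripts were tested on simulated counts. Ratios of FPKM were compared by exact permutation (scipy 1.17.1). Alternatives used limma 3.58.1 on log2(FPKM + 0.1), restricted to a minimum mean of 0.1, and DESeq2 1.42.0, with other scalings, filters and pseudocounts, and each library left out.

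The 10 genes, the lists and the motifs were chosen with earlier results of these data known. Named beside the 10 genes are, per list and direction, the 3 largest changes past the threshold, Pink1, and for Mfn1, Mfn2, Opa1 and Dnm1l the 3 nearest profiles. A gene that this rule names is not reported here. Promoters were read from RefSeq. Plots were made in matplotlib 3.10.9 under Python 3.11.15.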

Additional observations from a re-analysis of the deposited data

How the results depend on the processing

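In 13 alternative fits to all libraries, Mfn1 and Yme1l1 passed the adjusted limit in all 13, Fis1 in 12 and Mief1 in 5. With 1 library left out, Mfn1 and Fis1 passed in 6 of 6 fits, Yme1l1 in 3 and Mief1 in 1, and 2 to 4 of the 10 genes passed, 2 without 2-month replicate 3, 18-month replicate 2 or 18-month replicate 3. Mfn1 alone passed both limits with TPM and with content scaling, 1 gene in each. Of the 48 related genes, 18 to 35 passed with a library left out, 18 of them without 18-month replicate 2. The fusion over division ratio at 18 months was 0.655 times that at 2 months in FPKM and 0.746 times in counts. Some log2 fold changes of genes that had not passed changed sign, as did Mief1. With TPM they were −0.31 for Mfn2, −0.25 for Opa1, −0.15 for Mff, −0.01 for Mief1, −0.16 for Mief2 and −0.07 for Oma1. With content scaling they were −0.33, −0.27, −0.15, −0.03, −0.25 and −0.06 in the same order. Quantile normalization gave −0.17 for Mfn2 and −0.07 for Opa1, and a minimum mean FPKM of 1 gave −0.05 for Mfn2. These scalings moved the median of all genes down, except the FPKM minimum, whose cause was not tested. Mief2 was at −0.02 without 2-month replicate 1 and at 0.50 without 2-month replicate 2, and without 2-month replicate 2 the log2 ratio of Mief2 to Mief1 was 0.14, where the lone library decides the sign. Leaving out 2-month replicate 2 and 18-month replicate 1 together, chosen after seeing the data, 5 of the 10 genes passed (Mfn1, Opa1, Fis1, Mff and Yme1l1), and 37 of the 48 related genes.

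The replicate numbers are shared between the ages, but deviations of same-numbered libraries correlated at 0.0337, 0.0442 and −0.0241. Libraries of unlike number correlated at −0.0548 to 0.0531, so no pairing by number was seen, though these values cannot exclude it. With the number as a replicate block, 3 of the 10 genes passed (Mfn1, Fis1 and Yme1l1) and 7856 of all genes, against 10457 without it. With 3 libraries against 3, changes inside the intervals given for the genes that did not pass could not be detected.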
